A study of Mus musculus with 6 samples.

Results

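The 10 genes described here, Fscn1, Marcks, Marcksl1, Cd200, Il4i1, Birc3, Cacnb3, Samsn1, Tmem123 and Bcl2l14, belong to the transcript program of mature migratory dendritic cells. They were taken by gene symbol from the 52550 genes of the deposited files, and all 10 were found. The cells were plasmacytoid dendritic cells from the spleen of C57BL/6 mice, a cell type that senses nucleic acids in endosomes and secretes type I interferon. Every library came from cells stimulated for 12 hours with R837 (imiquimod), an agonist of the RNA sensor TLR7. R837 was given alone in 3 libraries and together with taurine, an amino sulfonic acid, in the other 3, so the comparison asks what taurine added to stimulated cells. No unstimulated library was analysed here, so none of the values shows what R837 itself did to these genes. The doses of both agents were not given in the sources used here.

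A dendritic cell that has met a stimulus stops sampling its surroundings, turns on the chemokine receptor CCR7 and moves through lymph vessels to the T cell areas of lymph nodes. On the way it rebuilds its actin cytoskeleton, raises costimulatory proteins and, at the same time, proteins that restrain T cells and myeloid cells. The program is known best from conventional dendritic cells, and mature plasmacytoid dendritic cells can turn on parts of it. Among the 10 genes, Fscn1, Marcks and Marcksl1 act on actin and the cell membrane, Cd200 and Il4i1 restrain immune cells, Birc3 and Bcl2l14 belong to families that regulate cell death, and Cacnb3, Samsn1 and Tmem123 code for a calcium channel subunit, a signalling adaptor and a surface protein.

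With taurine, 3 of the 10 genes rose at an adjusted p under 0.05 (limma, Benjamini-Hochberg over all tested genes) and none fell. Fscn1 rose by 0.93 on the log2(normalized count + 1) scale, Cacnb3 by 0.64 and Marcksl1 by 0.52. Across all 15265 tested genes, 6.41% were called (6.22% by edgeR), 3.75% higher and 2.66% lower. The median log2 change of the 10 genes was 0.42, beside -0.01 for all tested genes, and 9 of the 10 values were positive where 48.6% of tested genes had a positive value. All 3 taurine libraries lay above all 3 R837 libraries for 8 of the 10 genes, an arrangement seen for 14.6% of tested genes. Birc3 had the opposite order, seen for 15.0% of tested genes, and the groups overlapped for Bcl2l14. In either direction, groups did not overlap for 29.6% of tested genes. All 10 genes passed the filter on low values, with at least 467 normalized counts in every library. The genes were chosen with earlier results of these data known, so these counts describe them and do not test them as a group.

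**Figure D1:**
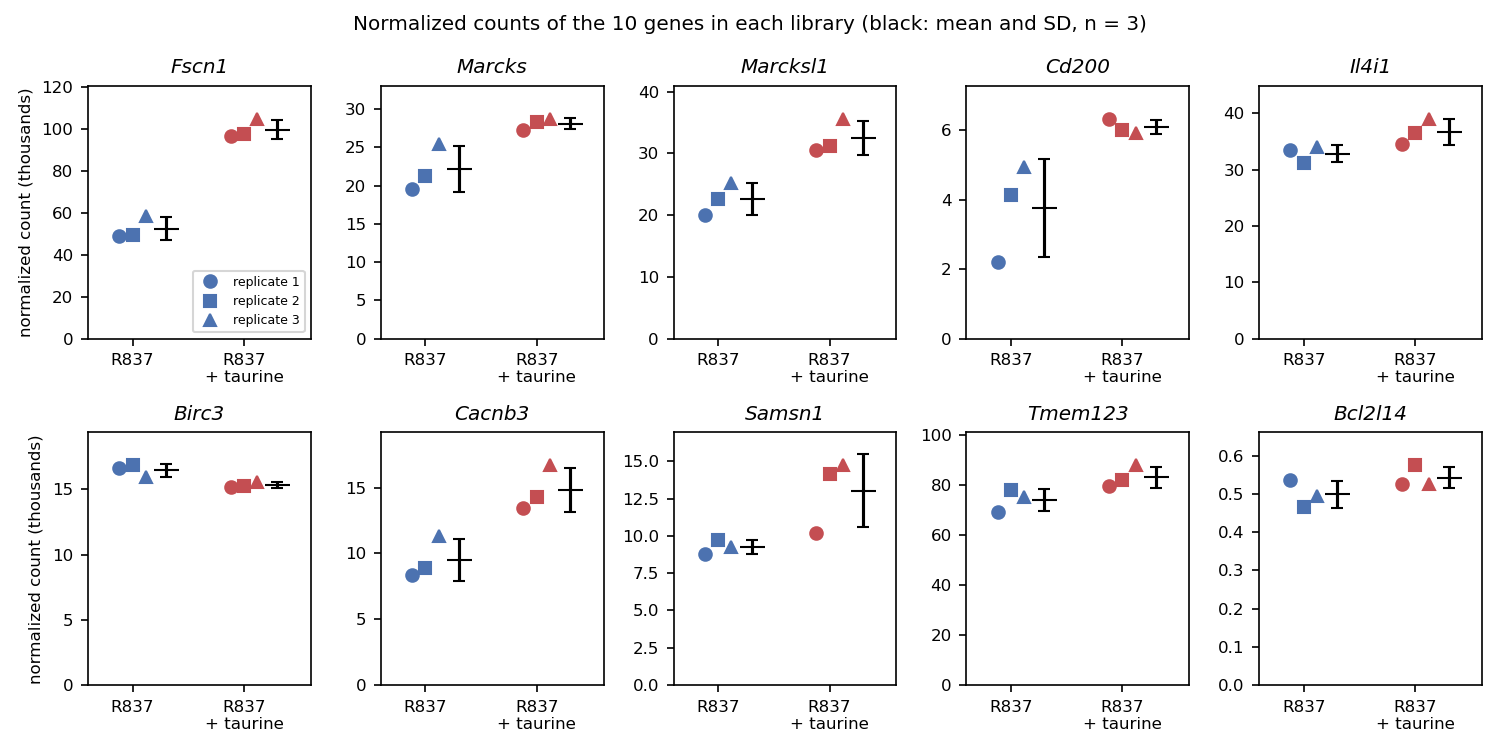
Normalized counts (vertical axes start at 0 and differ between panels) of the 10 genes, 1 panel per gene, with R837 libraries in blue, R837 plus taurine libraries in red, 1 symbol per replicate and black bars for the mean and SD of 3 libraries. The groups are separate for 9 genes, and the gap is widest for Fscn1, whose taurine libraries lie between 96599 and 104927 and R837 libraries between 48993 and 58783.

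The promoters of the 3 genes that rose are shown first, because they are the sequences closest to the transcripts that changed. They were taken from RefSeq on GRCm38.p6, 5′ to 3′ on the gene's strand, up to the base before the gene start that the files give. RefSeq entries were matched for 9 of the 10 genes, with 12 promoters in all, and Marcks had none. Capitals mark motif matches. The Fscn1 stretch lies at chr5:142960105-142960342 on the plus strand, the Marcksl1 stretch at chr4:129513331-129513580 on the plus strand, and the Cacnb3 stretch, from the first of its 2 RefSeq promoters, at chr15:98632078-98632219 on the plus strand.
Fscn1: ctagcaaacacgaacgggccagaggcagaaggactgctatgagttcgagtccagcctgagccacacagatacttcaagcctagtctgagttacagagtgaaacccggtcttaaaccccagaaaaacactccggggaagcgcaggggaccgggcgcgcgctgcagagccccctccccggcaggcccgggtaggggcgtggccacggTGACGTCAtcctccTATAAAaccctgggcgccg
Marcksl1: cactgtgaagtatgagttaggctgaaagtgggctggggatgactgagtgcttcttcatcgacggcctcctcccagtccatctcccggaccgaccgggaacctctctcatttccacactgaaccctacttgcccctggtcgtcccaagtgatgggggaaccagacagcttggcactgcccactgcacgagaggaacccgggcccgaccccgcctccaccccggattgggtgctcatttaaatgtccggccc
Cacnb3: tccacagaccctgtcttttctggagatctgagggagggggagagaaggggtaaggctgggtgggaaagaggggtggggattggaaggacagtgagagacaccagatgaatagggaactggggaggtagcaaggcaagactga

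In the Fscn1 promoter the letters TGACGTCA, a cAMP response element that reads the same on both strands, lie just upstream of a TATA box, TATAAA. The other motifs searched were an AP-1 site (TGANTCA), a kappaB site (GGG and TTTCC with any 2 bases between), an interferon response core (GAAA repeated after any 2 bases) and a GC box (GGGCGG). Each was searched on both strands of the 250 bases upstream of the RefSeq start, and no base was shared by 2 motifs. TGACGTCA was present in 1.55% of 32851 mouse promoters and in 1 of the 12 promoters of these genes, that of Fscn1. TATAAA was present in 12.4% of all promoters and also only in that of Fscn1 among the 12. The GC box was found in 5 of the 12 promoters, belonging to Cacnb3 (its other promoter), Cd200, Il4i1 and Tmem123, and in 32.7% of all promoters. The Tmem123 promoters overlap each other, so the same GC box can count in both. The RefSeq starts of the Il4i1 promoter and of that Cacnb3 promoter lie 19901 and 2547 bases inside the gene bounds of the files. The remaining 3 motifs had no match among the 12 and were present in 6.75% (AP-1), 1.41% (kappaB) and 2.98% (interferon response core) of all promoters. A match is a run of letters, and whether any factor was bound there was not measured.

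The libraries held between 33585080 and 38392654 reads on genes, and the authors' size factors lay between 0.942 and 1.06. Values below are normalized counts per library, always given in the order of replicates 1, 2 and 3, or group means ± SD with n = 3 libraries, and changes are the taurine group minus the R837 group in log2(normalized count + 1), with the standard error (SE) from limma. The labels do not tie the replicates to separate animals or cultures. The p-values therefore measure only the spread between these libraries, which may be technical. In bulk RNA, fewer cells of a type and less RNA per cell cannot be told apart. Coordinates are those of the files, which match mm10.

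Fscn1 codes for fascin, which packs actin filaments into the stiff bundles of dendrites and of the leading processes of mature dendritic cells. The gene (ENSMUSG00000029581.14, chr5:142960343-142973185, plus strand) had 48993, 49451 and 58783 normalized counts in replicates 1, 2 and 3 of R837 alone. In replicates 1, 2 and 3 with taurine it had 96599, 97749 and 104927. Every taurine library lay above every R837 library, and the lowest taurine value was 1.64 times the highest R837 value. The group means were 52409 ± 5525 and 99758 ± 4513, a ratio of 1.90, with a log2 change of 0.93 ± 0.08 (SE), a 95% interval of 0.76 to 1.11 and a limma adjusted p of 0.00238. Among tested genes, 7.37% had a larger absolute change. It was the only one of the 10 genes called with any 1 library left out, with changes between 0.89 and 1.02. The call was lost when limma was run without its abundance trend (adjusted p = 0.0844), a setting under which 4 genes of all those tested were called.

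Marcks and Marcksl1 code for a pair of related acidic proteins that sit on the inner face of the cell membrane, bind actin and phosphoinositides, and leave the membrane when protein kinase C phosphorylates them. Marcksl1 (ENSMUSG00000047945.6, chr4:129513581-129515985, plus strand) had 20060.3, 22556 and 25209 normalized counts with R837 alone and 30582, 31164 and 35599 with taurine. The groups were separate, and replicate 3 was the highest library of each group. Its log2 change was 0.52 ± 0.09 (SE), with an interval of 0.31 to 0.74 and a limma adjusted p of 0.0183. The call was lost on leaving out R837 replicate 1 or R837 replicate 2 (limma adjusted p = 0.0519 and 0.0771), and on leaving out taurine replicate 2 or taurine replicate 3 (0.0537 and 0.0687).

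Marcks (ENSMUSG00000069662.5, chr10:37133375-37138920, minus strand) had 19602, 21282 and 25453 normalized counts with R837 and 27323, 28242 and 28707 with R837 plus taurine. The groups did not overlap, but R837 replicate 3 came close to the taurine libraries, and the R837 group spread wider (SD 3013) than the taurine group (SD 704). The log2 change of 0.35 ± 0.09 (SE), with an interval of 0.15 to 0.56, did not pass the test (limma adjusted p = 0.0576). It passed without R837 replicate 3, at 0.46 with a limma adjusted p of 0.00689. DESeq2 on the recovered reads gave an adjusted p of 0.0131 and edgeR one of 0.0653.

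The balance inside this gene pair was followed as the log2 ratio of Marcks to Marcksl1 within each library, in which a library's size factor cancels but a trend on gene length or GC content does not. The ratio was -0.03, -0.08 and 0.01 with R837 alone and -0.16, -0.14 and -0.31 with taurine. All 3 taurine libraries lay below all 3 R837 libraries, so Marcksl1 held a larger share of the pair's normalized counts there. The group means were -0.03 ± 0.05 and -0.20 ± 0.09, and the difference of -0.17 had an exact two-sided permutation p of 0.1, the smallest that 3 against 3 libraries can give. That order was not kept when each library's trends on exon length and GC content were removed: the ratios overlapped (-0.29 to 0.03 with R837 alone and -0.14 to -0.03 with taurine), and the difference was 0.04 with an exact permutation p of 0.8. The coding sequences of the pair are 927 bases (Marcks) and 600 bases (Marcksl1) long, and the longest run of identical bases between them, at bases 100 to 116 of Marcks and 85 to 101 of Marcksl1 in GENCODE M21, is 17 bases. It is shown because its length bears on whether reads of the pair can be told apart.
Marcks and Marcksl1: caggagaatggccacgt

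**Figure D2:**
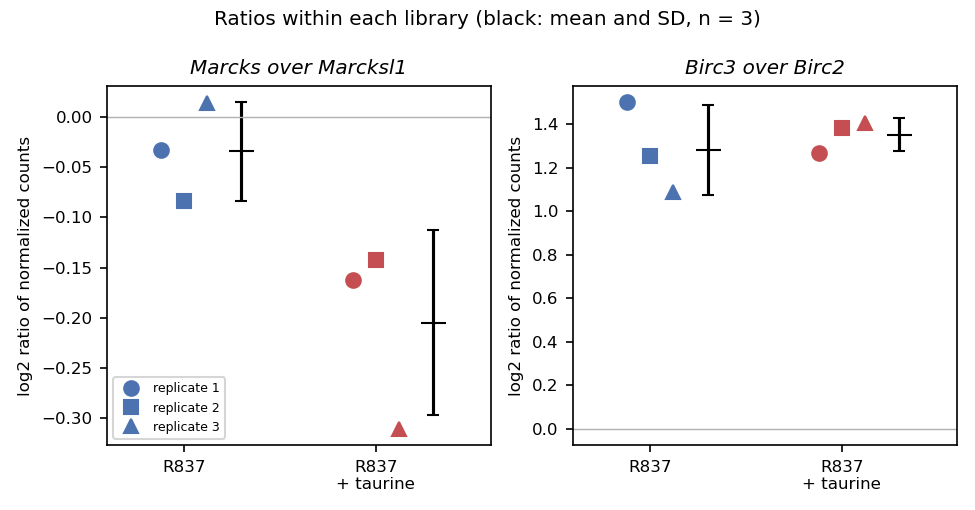
Log2 ratio of normalized counts within each library for Marcks to Marcksl1 and for Birc3 to Birc2, with 1 symbol for each of the 3 libraries of a group and black bars for the mean and SD. The Marcks to Marcksl1 ratio lies lower in every taurine library (-0.31 to -0.14) than in any R837 library (-0.08 to 0.01) before length and GC trends are removed, and the Birc3 to Birc2 ratios overlap.

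Cd200 codes for a surface glycoprotein of the immunoglobulin family that restrains myeloid cells through its receptor CD200R1. It (ENSMUSG00000022661.14, chr16:45382135-45409053, minus strand) had 2195, 4142 and 4932 normalized counts with R837 alone and 6321, 6010.2 and 5930.5 with taurine. The taurine libraries were close together and all higher, whereas R837 replicate 1 lay well under the other 2 of its group. Its log2 change, the second in size among the 10 genes at 0.78 ± 0.25 (SE), had an interval of 0.21 to 1.34 and did not pass the test (limma adjusted p = 0.0998). The value was 0.43 without R837 replicate 1 and 1.01 without R837 replicate 3, and the latter passed with a limma adjusted p of 0.0330. The receptor gene Cd200r1 was at 622 ± 45.9 with R837 and 484 ± 16.9 with taurine, a log2 change of -0.36 (limma adjusted p = 0.105).

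Il4i1 codes for a secreted oxidase of aromatic amino acids that restrains T cells. Its values (ENSMUSG00000074141.13, chr7:44816387-44840809, plus strand) were 33472, 31120.1 and 34011 normalized counts with R837 and 34479, 36471 and 39017 with taurine. The groups only just did not overlap, and the log2 change of 0.16 ± 0.07 (SE) did not pass the test (limma adjusted p = 0.193). Its count is uncertain, because 83.9% of its exon bases in GENCODE M21 lie under exons of Tbc1d17 on the other strand and the strand setting of the counting is not given in the sources used here. With the reads of Tbc1d17 added, the log2 difference was 0.22. Nup62 and Atf5, which also overlap it, share only 97 and 82 bases with its exons, and with all 3 genes added the difference was 0.21. Nup62 alone had a log2 change of 0.16 (limma adjusted p = 0.383).

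Birc3 codes for cIAP2, a ubiquitin ligase that keeps cells alive downstream of TNF receptors and holds the kinase of the non-canonical NF-kB pathway in check. It was the 1 gene of the 10 with a negative value. Birc3 (ENSMUSG00000032000.17, chr9:7848699-7873186, minus strand) had 16672, 16832 and 15916 normalized counts with R837 and 15175, 15240 and 15583 with taurine. All taurine libraries lay below all R837 libraries, by a small margin, and the log2 change of -0.10 ± 0.06 (SE) had an interval of -0.23 to 0.03 that includes 0 (limma adjusted p = 0.315). After removal of library trends on exon length and GC content, the value was 0.000906, so its sign depended on that correction. The neighbouring gene Birc2, which codes for the related cIAP1, had a log2 change of -0.17 (limma adjusted p = 0.314).

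The log2 ratio of Birc3 to Birc2 was 1.50, 1.25 and 1.09 with R837 alone and 1.27, 1.38 and 1.41 with taurine, so the groups overlapped. The difference of 0.07 had an exact two-sided permutation p of 0.6, and it was -0.03 without R837 replicate 3. A part of the reads of this gene pair is uncertain, because their coding sequences (1806 bases in Birc3, 1836 in Birc2) share a run of 114 identical bases. It lies at 1084 to 1197 of Birc3 and 1111 to 1224 of Birc2. The exons hold 5009 bases in Birc3 and 4580 in Birc2, and how many reads the run affects was not tested. That run is shown because a read that falls wholly within it fits both genes.
Birc3 and Birc2: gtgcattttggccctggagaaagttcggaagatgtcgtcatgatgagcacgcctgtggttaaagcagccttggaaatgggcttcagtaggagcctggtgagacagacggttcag

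Bcl2l14 codes for Bcl-G, a relative of the BCL2 proteins. It was the least abundant of the 10 genes (ENSMUSG00000030200.13, chr6:134396318-134438736, plus strand), with 536, 467 and 496 normalized counts with R837 and 526, 575 and 528 with taurine. The groups overlapped, and the log2 change of 0.12 ± 0.12 (SE) had an interval of -0.15 to 0.39 (limma adjusted p = 0.590). Exons of the antisense gene 4933406J09Rik cover 14.1% of its exon bases, and with those reads added the difference was 0.04.

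Cacnb3 codes for the beta3 subunit of voltage-gated calcium channels, which brings the pore-forming subunit to the membrane. The gene (ENSMUSG00000003352.13, chr15:98632220-98644530, plus strand) had 8383, 8868 and 11356 normalized counts with R837 alone and 13477, 14279 and 16685 with taurine. The groups were separate, and as for Marcksl1, replicate 3 was the highest of each group. The log2 change was 0.64 ± 0.12 (SE), with an interval of 0.36 to 0.92 and a limma adjusted p of 0.0223. Leaving out R837 replicate 1 or R837 replicate 2 ended the call (limma adjusted p = 0.0742 and 0.0988), as did leaving out taurine replicate 2 or taurine replicate 3 (0.0599 and 0.0831).

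Among the other calcium channel genes, the beta subunit genes Cacnb1 and Cacnb2 had log2 changes of 0.09 and 0.04 that did not pass the test (limma adjusted p = 0.811 and 0.890). The beta subunit gene Cacnb4 had 2.02 at very low counts, 6.97 ± 6.63 with R837 and 23.1 ± 16.0 with taurine (limma adjusted p = 0.316). Cacna1e, which codes for a pore-forming subunit, fell from 511 ± 65.1 to 245 ± 32.0 normalized counts, a log2 change of -1.06 with a limma adjusted p of 0.0121. That call was lost without R837 replicate 2 (limma adjusted p = 0.0635) and without taurine replicate 3 (0.0515). No other pore subunit gene was called. Cacna1d, the most abundant of them by normalized count, had 1044 ± 89.6 with R837 and 1184 ± 56.6 with taurine. Its log2 change was 0.18 (limma adjusted p = 0.332). Exons of Chdh on the other strand overlap Cacna1d, and with those reads added the difference was -0.16, so its sign is uncertain. Cacna1a had 0.93 at low counts (limma adjusted p = 0.280).

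Samsn1 codes for a signalling adaptor with SH3 and SAM domains that is found in blood cells. Its values (ENSMUSG00000022876.17, chr16:75858793-76022270, minus strand) were 8759, 9733 and 9249 normalized counts with R837 alone and 10206, 14153 and 14722 with taurine. The groups did not overlap, but taurine replicate 1 lay next to the R837 libraries and far under the other 2 taurine libraries. The log2 change of 0.48 ± 0.13 (SE), with an interval of 0.18 to 0.77, did not pass the test (limma adjusted p = 0.0649). Without taurine replicate 1 it was 0.64 and passed, with a limma adjusted p of 0.0214. Sash3, which codes for a related adaptor, fell by 0.33 on the log2 scale (limma adjusted p = 0.0338), and this call held in 1 of 6 fits with 1 library left out.

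Tmem123 codes for a heavily glycosylated surface protein, porimin, and was the most abundant of the 10 genes in R837 cells. It (ENSMUSG00000050912.15, chr9:7764041-7794333, plus strand) had 69391, 78062 and 75130 normalized counts with R837 and 79683, 82077 and 87951 with taurine. The taurine libraries were all higher, and the log2 change of 0.17 ± 0.06 (SE) did not pass the test (limma adjusted p = 0.154), with an interval of 0.02 to 0.31.

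**Figure D3:**
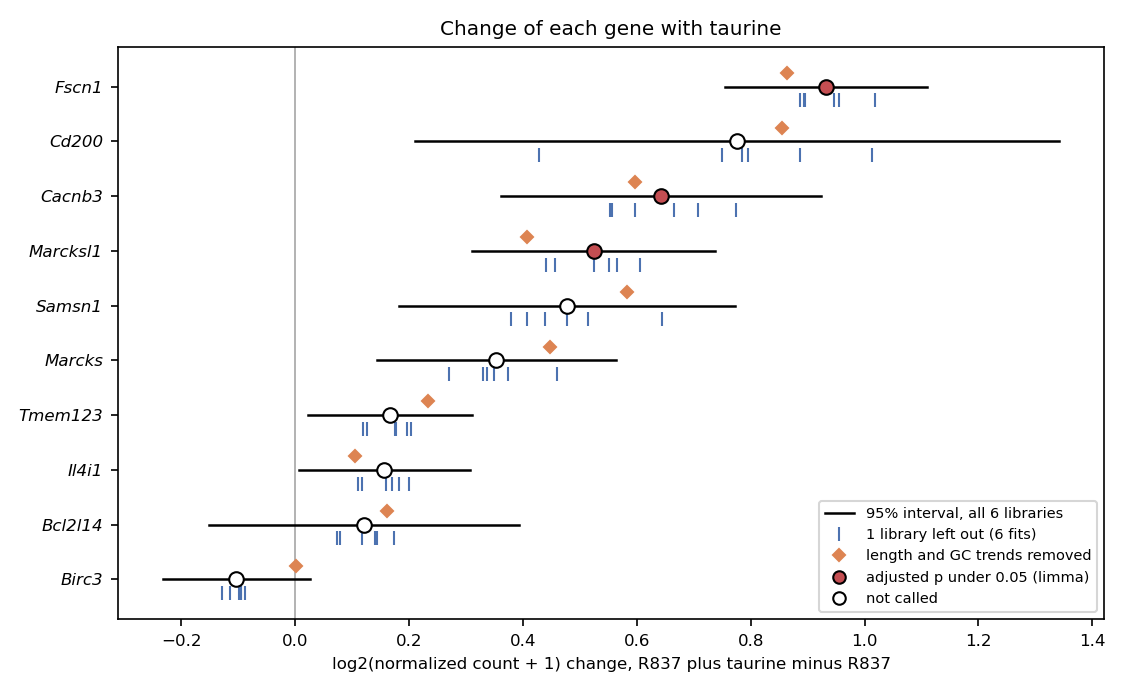
Change of each of the 10 genes in log2(normalized count + 1), taurine group minus R837 group, with 95% intervals from limma and red points for an adjusted p under 0.05. Blue ticks give the values with 1 library left out and orange diamonds those with length and GC trends removed. Fscn1, Cacnb3 and Marcksl1 pass, the interval of Cd200 is the widest, and those of Birc3 and Bcl2l14 include 0.

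Levels were compared between genes only per kilobase of exon, as mean normalized counts per kilobase. With R837 alone the order was Tmem123 (23864), Fscn1 (17400), Marcksl1 (14086), Il4i1 (8056), Marcks (5463), Birc3 (3289), Cacnb3 (2378), Samsn1 (1874), Cd200 (1131) and Bcl2l14 (122). With taurine Fscn1 (33120) stood above Tmem123 (26773), and Cacnb3 (3694) above Birc3 (3061), while the other 6 genes held their places. The ranges over the 3 libraries of neighbouring genes did not overlap in either group. Fscn1 therefore went from the second to the first place per kilobase, and the order below Marcks changed only through Cacnb3 and Birc3.

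**Figure D4:**
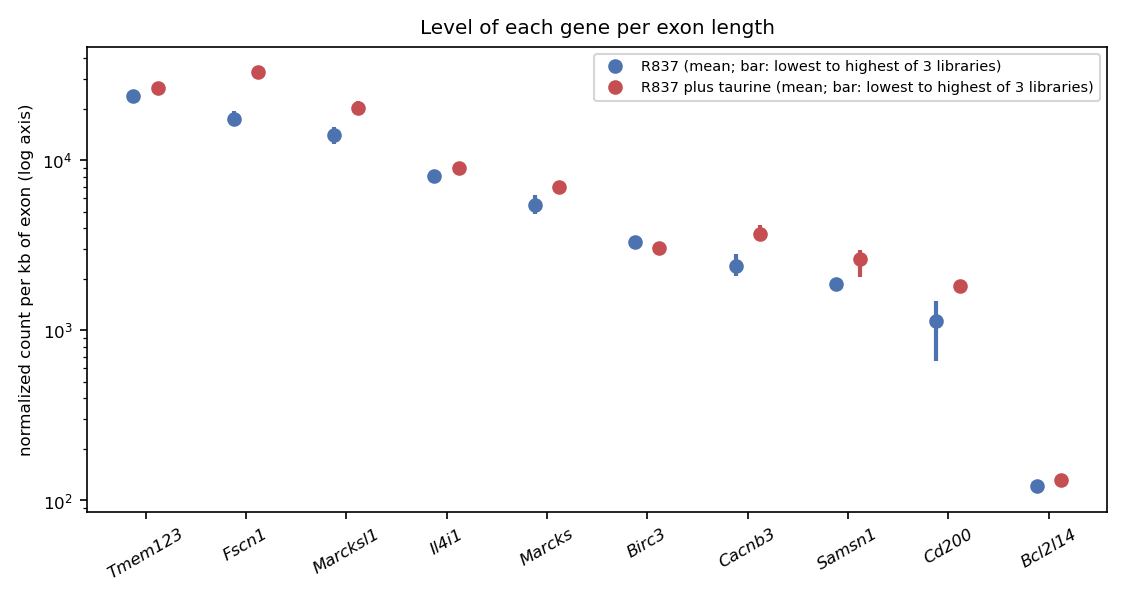
Normalized counts per kilobase of exon for the 10 genes in the R837 and R837 plus taurine libraries, on a log axis, with points for the group mean and bars from the lowest to the highest of 3 libraries. Fscn1 passes Tmem123 and Cacnb3 passes Birc3 with taurine, and Bcl2l14 is lowest in both groups at 122 and 133 per kilobase.

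Together the 10 genes took 0.639%, 0.685% and 0.745% of all normalized counts with R837 alone and 0.861%, 0.892% and 0.956% with taurine. Abundant genes weigh most in this sum, and 7 of the 10 genes were not called. The mean of Fscn1 went from 52409 to 99758 normalized counts and that of Tmem123 from 74194 to 83237. Birc3 went the other way, from 16473 to 15332. The libraries of a group also differed in a shared way. R837 replicate 1 was the lowest of its group for 7 of the 10 genes and replicate 3 the highest for 6, and taurine replicate 1 was the lowest for 9 and replicate 3 the highest for 8. The number of the 10 genes called was 1 without R837 replicate 1, without R837 replicate 2, without taurine replicate 2 or without taurine replicate 3, and it was 5 without R837 replicate 3 and 4 without taurine replicate 1. In the deviations of libraries from the gene means, the Spearman correlation with exon length across genes, which are not independent replicates, was 0.04 to 0.15 in the R837 libraries and -0.20 to -0.10 in the taurine libraries. With trends on length and GC content removed, 5 of the 10 genes were called, Marcks and Samsn1 besides the 3, and 4.35% of all tested genes were called higher.

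Because the same program is carried by conventional dendritic cells, markers of other cells were read in the same libraries. The 12 markers of plasmacytoid dendritic cells summed to 363703 to 385941 normalized counts with R837 and 378838 to 400154 with taurine. Irf8 and Ly6d gave the largest parts, at 101959 to 105432 and 94008 to 101660 with R837. Of the 12, 2 were called higher, Bst2 (0.38) and Cox6a2 (0.55). Another 4 were called lower, Tcf4 (-0.51), Runx2 (-0.60), Pacsin1 (-0.38) and Klk1 (-0.35). Over all tested genes 6.41% were called. The 16 markers of conventional dendritic cells summed to 123530 to 132103 with R837 and 107003 to 115623 with taurine. Most of that sum was Cd8a, which plasmacytoid cells can also express, at 81247 to 88500 and 70729 to 75805, and of 15 tested markers none was called higher and 3 lower (Clec9a, Cd8a and Flt3). The markers did not all go the same way: Batf3 (135 to 172 and 179 to 264) and Itgae (133 to 156 and 157 to 231) were higher in every taurine library, with no call. Of their defining markers, Zbtb46 had 2573 to 3069 with R837 and 2922 to 3198 with taurine, Xcr1 34.0 to 61.4 and 40.9 to 55.2, and Clec9a 2510 to 2615 and 1722 to 1963. The sums overlapped between groups for the 8 B cell markers (1913 to 3026 and 2026 to 2741), the 10 monocyte and macrophage markers (23324 to 24299 and 23063 to 28053) and the 5 NK cell markers (31.2 to 64.2 and 25.5 to 38.1). They did not for the 8 T cell markers (1863 to 2094 and 1481 to 1794, with Cd3d and Cd3g at 0) and the 6 neutrophil markers (797 to 1248 and 1272 to 1456). The largest part of the T cell sum was Cd4 (1173 to 1294 and 881 to 1178), while Cd3e and Trac had at most 8.08 and 13.5. Among the markers of these other cells only Ngp, a neutrophil marker, was called, with 0.76 (limma adjusted p = 0.0132). What part other cells had in the values of the 10 genes was not tested.

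The wider program was read from 79 further genes listed by role, with earlier results of these data known. Of the 77 that passed the low-value filter, 24 rose with taurine and none fell, beside 3.75% higher and 2.66% lower among all tested genes. The median log2 change of the 77 was 0.28, and 64 values were positive. The 2 genes not tested were Lamp3, a lysosomal membrane protein by which the mature state is often named, at 5.86 ± 5.67 with R837 and 2.86 ± 4.95 with taurine, and Ccl19, a ligand of CCR7, with no read in any library. Lamp3 therefore could not mark the mature state in these libraries, while Fscn1 and Ccr7 had high counts in both groups. Whether R837 turned Fscn1 or Ccr7 on was not tested. The count of 24 moved when 1 library was left out: to 9, 7 and 30 on leaving out R837 replicate 1, 2 and 3, and to 11, 14 and 8 on leaving out taurine replicate 1, 2 and 3. In some other settings, up to 2 genes of the list were called lower.

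Of 9 genes of migration and adhesion, 3 rose. Ccr7 itself had 97647, 91680 and 98135 normalized counts with R837 and 131822, 132408 and 146561 with taurine, with separate groups and a log2 change of 0.51 ± 0.06 (SE, limma adjusted p = 0.00493). Cd63, a tetraspanin of endosomes, rose by 0.87 and Myo1g, a membrane-bound myosin, by 0.31. With 1 library left out, Ccr7 and Cd63 were called in 6 of 6 fits and Myo1g in 1. Adam8, a surface protease, had 0.35 (limma adjusted p = 0.0522), and Icam1, an adhesion ligand of integrins, had 0.08, or -0.02 after quantile normalization. The cytoskeletal gene Fscn1 and the receptor gene Ccr7 were thus both higher, with a larger change in Fscn1.

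Of 10 tested genes of maturation and costimulation, 3 rose. Cd40, the receptor for the T cell ligand CD154, went up by 0.51 (limma adjusted p = 0.0101), Cd70 by 0.62 and Tnfrsf4 by 0.86. With 1 library left out, Cd40 was called in 5 of 6 fits, Tnfrsf4 in 1 and Cd70 in 0. Cd70 was also not called with length and GC trends removed (limma adjusted p = 0.0778). The costimulatory genes Cd86 and Cd80 had changes of 0.26 (limma adjusted p = 0.0562) and -0.22 (0.347), and Cd83, a maturation marker, had 0.09, or -0.00105 after quantile normalization. Among 10 genes of checkpoints and regulation, Cd274, which codes for PD-L1, rose by 0.27 and Fas, a death receptor, by 0.71. Cd274 was called in 1 and Fas in 2 of 6 fits with 1 library left out. Pdcd1lg2, which codes for PD-L2, had 0.17 (limma adjusted p = 0.609), and the cytokine signal inhibitors Socs1 and Socs2 had 0.35 (0.0656) and 0.37 (0.155). An antisense gene that is not among the genes of the files overlaps Cd274, so its count carries that uncertainty.

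Of 8 tested cytokine and chemokine genes, 4 rose: Ccl5, a chemokine for T cells, by 0.52, Il15, a growth factor of NK and memory T cells, by 0.71, and Il12b and Ebi3, which code for subunits of IL-12 family cytokines, by 0.28 and 0.34. Exons of an antisense gene overlap Ebi3, and with its reads added the difference was 0.31. Ccl22, a ligand of CCR4, was abundant at 73871 ± 5927 with R837 and 79968 ± 6621 with taurine, with a change of 0.11 that did not pass. Ccl17, the other CCR4 ligand, was at 32.0 ± 3.37 and 20.5 ± 11.5, with a change of -0.80 at these low levels (limma adjusted p = 0.427). Il15ra, which presents IL-15, had 0.36 (0.271). Of 7 type 2 and cytokine receptor genes, only Il4ra, the IL-4 receptor alpha chain, was called, with 0.34 (limma adjusted p = 0.0424).

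Of 12 genes of the non-canonical NF-kB pathway and of survival, 4 rose. Relb, the transcription factor at the end of that pathway, rose by 0.46 (limma adjusted p = 0.0450), and its partner gene Nfkb2 had 0.16 (0.122). Map3k14, the kinase that Birc3 protein helps to degrade, had 0.09 (0.719). Traf1, an adaptor that binds cIAP proteins, rose by 0.28, and the protease inhibitor genes Serpinb9 and Serpinb6b rose by 0.90 and 0.73, though genes of that family have close copies that may share reads. Of the 21 remaining genes of the state, 7 rose: Spsb1 by 0.96, Gyg by 0.80, Epsti1 by 0.64, Apol7c by 0.60, Adcy6 by 0.56, Anxa3 by 0.53 and Stat4 by 0.53. Apol7c has close copies, and Stat4 had 0.49 with the reads of an overlapping gene added.

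**Figure D5:**
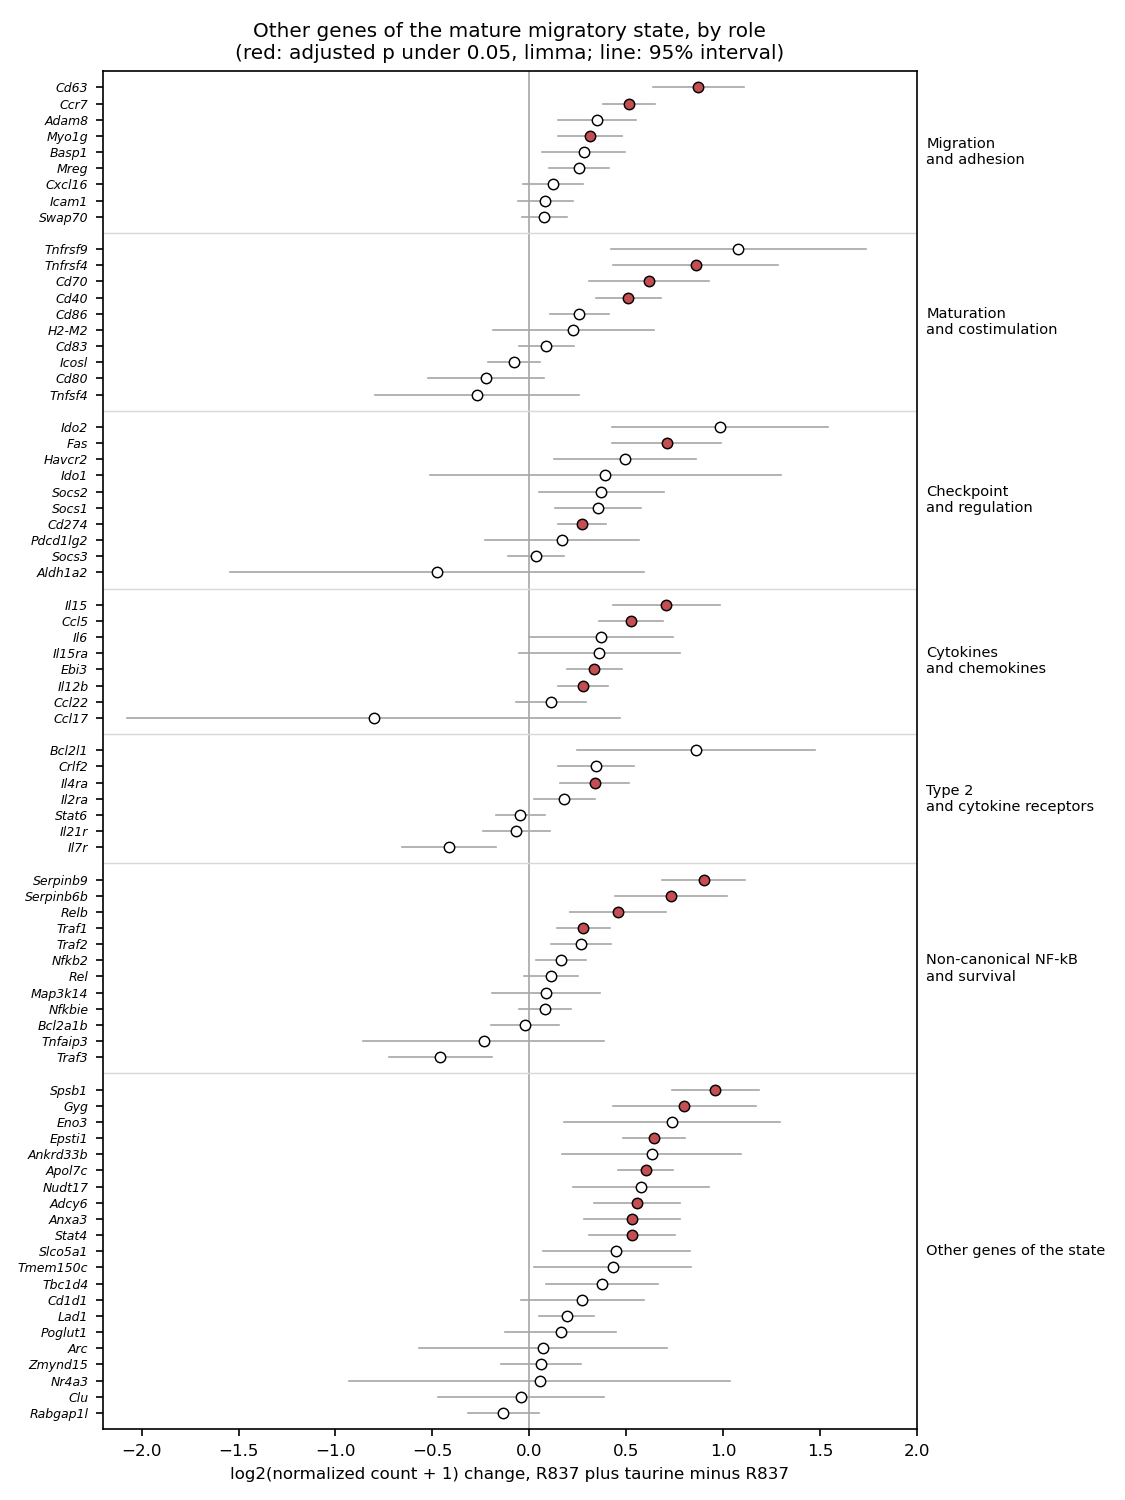
Log2 changes of the 77 tested genes of the wider program with 95% intervals, R837 plus taurine minus R837, grouped by role, with red points for an adjusted p under 0.05 (limma). Red points appear in all 7 groups and none lies below 0.

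Paralogs, receptors and partners of single members were read from a list of 41, of which 40 were in the files and 32 were tested. With taurine 1 rose and 4 fell, and the median log2 change was -0.08, with 16 values above 0 and 16 below. Over all tested genes 6.41% were called and 48.6% had a positive value. Prkcb, a protein kinase C gene, was at 14389 ± 1736 with R837 and 10433 ± 241 with taurine, a log2 change of -0.46 (limma adjusted p = 0.0248) that was called in 1 of 6 fits with 1 library left out. Birc6, a long relative of Birc3, had -0.48 with a limma adjusted p of 0.0464. It also was called in 1 of 6 such fits, and with length and GC trends removed it had -0.23 and was not called (limma adjusted p = 0.131). Xiap, another relative, had -0.63 with an adjusted p of 0.600. Cacna1e and Sash3 were the remaining genes that fell.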

How the data were processed

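The authors deposited a normalized count for each gene in each of 6 libraries, per the file headers, which is a signal value on a linear scale. The submitters' processing notes list HISAT2, StringTie, mm8 and mm10 without saying what each was used for. A counting tool and its strand setting were not given in the sources used here. Each value was a whole number of reads divided by 1 size factor per library, to within 0.001 of a read for 100% of values.

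The 10 genes and all lists were chosen with earlier results of these data known. The 15265 genes that reached 10 normalized counts in 3 or more of the 6 libraries were tested on log2(normalized count + 1) with limma 3.58.1 in R 4.3.3, with an abundance trend and two-sided. P-values were adjusted over all of them (Benjamini-Hochberg), and a gene was called at an adjusted p under 0.05. The log2 scale with a pseudocount of 1 understates changes of low genes. Log2 ratios within libraries were compared by an exact permutation test. On the recovered reads, edgeR 4.0.16 (quasi-likelihood, TMM) called 950 genes, beside 979 by limma (573 higher and 406 lower), and DESeq2 1.42.0 was a further alternative. Exon lengths, overlaps and coding sequences came from GENCODE M21, whose coordinates were the same for 95.2% of 52403 shared genes, and promoters from RefSeq. Every pair of libraries of a group differed by more than sampling noise. The scripts were tested on simulated data. All 10 genes, a fixed set of genes of the wider program, every other called gene of it, and called relatives were named, except 1 relative that is not reported here.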

Additional observations from a re-analysis of the deposited data

How the results depend on the processing

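The number of the 10 genes called, 3, was 3 with edgeR, 5 with DESeq2, 5 with length and GC trends removed and 0 without the abundance trend (5 had an unadjusted p under 0.05 there), and 1 to 5 with 1 library left out. For the 77 genes of the wider program, 24 became 39 with DESeq2, 0 without the trend (39 unadjusted), 13 without the low-value filter and 7 to 30 with 1 library left out. Of that list, 2 genes were called lower with DESeq2, after rescaling without the 50 most abundant genes, and with a filter at a mean of 50. With quantile normalization, with length and GC trends removed, and without R837 replicate 3, 1 was called lower. For all genes, 979 became 1913 with DESeq2, 4 without the trend (3217 unadjusted), 547 without the filter, 615 with the replicate number as a block and 134 to 1477 with 1 library left out. Without the trend, Fscn1 had a limma adjusted p of 0.0844, and without the filter Cacnb3 had one of 0.0533. Rescaling without the 50 most abundant genes gave 462 genes higher and 586 lower, beside 573 and 406, and the same number of the 10 genes, 3. Signs turned for Birc3 (0.000906 with length and GC trends removed) and after quantile normalization for Cd83 (-0.00105), Icam1 (-0.0190) and Nr4a3 (-0.0312). With 1 library left out they turned for Map3k14 (-0.0285 to 0.21), Cacnb1 (-0.00233 to 0.26), Cacnb2 (-0.0404 to 0.11), Nr4a3 (-0.32 to 0.57) and Tnfaip3 (-0.51 to 0.0482). The Marcks to Marcksl1 difference, -0.17, was 0.0404 with length and GC trends removed, an alternative chosen after seeing the data. The Birc3 to Birc2 difference, 0.07, was -0.0255 (without R837 replicate 3) to 0.18 (without R837 replicate 1). The cause was not tested. Of 173 values of the 10 genes under alternatives, 152 kept direction and side of the threshold, 12 lost the call, 8 gained it and 1 turned sign. Only the 3 called genes could lose a call. Fscn1 was called in 6 of 6 fits with 1 library left out and in 10 of 11 other settings. For Marcksl1 these counts were 2 and 10, and for Cacnb3 2 and 9. The labels do not say whether the replicate numbers pair the libraries. Same-numbered libraries had correlations of deviations of -0.00264, -0.00681 and -0.0434. Such correlations across genes cannot settle how the libraries were made, so a pairing remains possible. With the replicate number as a block 3 of the 10 genes and 22 of the wider program were called.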

Other observations

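Some genes tied to the program varied widely between libraries of the same group, and were singled out after their values were seen. Xiap, an inhibitor of caspases, had 1982, 6351 and 7948 normalized counts with R837 alone (replicates 1, 2 and 3) and 1534, 7768 and 2262 with taurine. Nr4a3, a nuclear receptor gene turned on by activation, had 29013, 14418 and 33809.5 with R837 alone and 12336, 35661 and 35934 with taurine. Tnfaip3, which codes for the NF-kB inhibitor A20, was high in replicate 1 of both groups, at 23272 and 19662, against 10689.6 to 12978 in the other 4 libraries. Bcl2l1, which codes for the survival protein BCL-XL, had 12577 in taurine replicate 2, against 3871 to 5808 in the other 5 libraries. None of these 4 genes was called by limma (adjusted p of 0.600, 0.961, 0.657 and 0.0945).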
